A study of Mus musculus with 16 samples.

Results

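The 2 fluorescence-sorted cell fractions of the olfactory mucosa of mice that breathed filtered air were compared, using the 8 of 16 arrays whose titles begin with Vehicle. Both groups came from C57BL/6 mice of the S100a5-tauGFP line, of both sexes and 7 to 12 weeks old, in which a green fluorescent protein reports the activity-linked gene S100a5. The mice were kept one to a chamber for 40 h in clean air flowing at 3.1 L/min, and from 26 h on the vehicle mice received a 10 s pulse of filtered air every 20 min. The mucosa of 3 mice was dissociated and sorted as 1 pool, and each of the 4 vehicle pools gave 1 array titled GFP+ and 1 array titled GFP-, from 50 to 100 ng of RNA. The remaining 8 arrays held the same fractions of pools exposed to whiskey lactone, an aroma compound of oak, and entered mainly through the shared estimate of spread. The question that these pools address is which cells the sort parted when no odor was added. Each fraction is a mixture of cells chosen by fluorescence alone, and no gate on a cell type is given in the sources used here.

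The cell type field of the labels named the fraction opposite to the title in 8 of 8 vehicle arrays. S100a5 was higher in the arrays titled GFP-, so the gene behind the reporter went against the titles and with the cell type field. The fractions are called by their titles throughout, neither label was changed, and every difference is titled GFP+ minus titled GFP-. All of these differences change sign if the cell type field is taken as the name.

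In the olfactory epithelium each mature sensory neuron expresses a single odorant receptor gene, and receptor activation opens ion channels through a cyclic AMP cascade. Sustained firing raises the transcription of a set of neuronal genes that includes S100a5, and neurons with different receptors have different activity even in clean air. The neurons are renewed from basal stem cells and lie among sustentacular, microvillar and gland cells, over a lamina propria with blood vessels and immune cells.

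Promoters that bear on the genes described below are shown first: S100a5 because it drives the reporter, S100a8 and Mmp8 as neutrophil genes with a binding motif of the myeloid factor PU.1, and Egr2, Zfp36 and Btg2 as immediate early genes with a serum response element or a cyclic AMP response element. Each is the run of 250 bases before the RefSeq transcription start in GRCm38.p6, 5′ to 3′ on the gene's own strand. They lie at chr3:90608272-90608521 (plus strand) for S100a5, chr3:90668821-90669070 (plus) for S100a8, chr9:7558179-7558428 (plus) for Mmp8, chr10:67537316-67537565 (plus) for Egr2, chr7:28379229-28379478 (minus) for Zfp36 and chr1:134079156-134079405 (minus) for Btg2. Capitals mark the match to PU.1 (GAGGAAGT or its reverse complement) in S100a8 and Mmp8, to the serum response element (CArG box) in Egr2 and Zfp36, and to the cyclic AMP response element (TGACGTCA) in Btg2. S100a5 has no capitals because none of these motifs, nor the EBF motif (TCCCNNGGGA), was found in its window.
S100a5: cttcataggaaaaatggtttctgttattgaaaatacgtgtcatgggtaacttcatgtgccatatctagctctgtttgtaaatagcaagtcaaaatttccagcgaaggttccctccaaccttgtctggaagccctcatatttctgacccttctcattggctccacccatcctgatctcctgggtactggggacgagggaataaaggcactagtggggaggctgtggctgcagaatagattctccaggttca
S100a8: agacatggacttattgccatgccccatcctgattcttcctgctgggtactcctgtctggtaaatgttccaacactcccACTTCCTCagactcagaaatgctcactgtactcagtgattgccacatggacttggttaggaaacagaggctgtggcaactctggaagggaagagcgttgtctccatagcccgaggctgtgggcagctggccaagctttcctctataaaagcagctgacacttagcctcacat
Mmp8: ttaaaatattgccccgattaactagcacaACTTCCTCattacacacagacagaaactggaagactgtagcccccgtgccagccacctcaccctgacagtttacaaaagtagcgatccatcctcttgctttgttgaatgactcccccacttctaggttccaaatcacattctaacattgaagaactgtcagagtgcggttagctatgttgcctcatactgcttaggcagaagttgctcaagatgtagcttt
Egr2: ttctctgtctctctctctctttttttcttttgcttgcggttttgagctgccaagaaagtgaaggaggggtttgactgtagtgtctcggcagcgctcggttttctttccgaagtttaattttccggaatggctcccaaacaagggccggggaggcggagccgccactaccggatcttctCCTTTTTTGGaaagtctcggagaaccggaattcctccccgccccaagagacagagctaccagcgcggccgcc
Zfp36: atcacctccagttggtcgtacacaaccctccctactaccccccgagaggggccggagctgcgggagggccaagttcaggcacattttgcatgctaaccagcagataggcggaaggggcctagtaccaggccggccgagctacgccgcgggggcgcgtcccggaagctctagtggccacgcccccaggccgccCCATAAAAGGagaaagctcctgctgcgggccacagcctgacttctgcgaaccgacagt
Btg2: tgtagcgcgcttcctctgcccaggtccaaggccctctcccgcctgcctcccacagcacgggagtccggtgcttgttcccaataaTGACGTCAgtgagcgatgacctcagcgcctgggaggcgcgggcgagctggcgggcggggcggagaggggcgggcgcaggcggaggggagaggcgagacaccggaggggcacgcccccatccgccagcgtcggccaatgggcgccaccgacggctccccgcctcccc

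Counted from the start site, the PU.1 match lay at -172 to -165 in S100a8 and at -221 to -214 in Mmp8. The serum response element lay at -72 to -63 in Egr2, in the first by coordinate of 4 windows with a match among 5 listed for that gene, and at -58 to -49 in Zfp36. The cyclic AMP response element of Btg2 lay at -166 to -159. Both strands were searched, and the motifs do not overlap in these windows. Of the 22 neutrophil genes with a window, 6 (27.3%) held the PU.1 motif: Elane, Itgb2l, Mmp8, Mpo, Prtn3 and S100a8. Among all 15691 tested genes with a window the share was 2.63%. The cyclic AMP response element was present in 3 of 21 immediate early genes (14.3%, against 2.27% of tested genes) and the serum response element in 2 of 21 (9.52%, against 1.54%). By contrast, the cyclic AMP response element was in 0 of 9 activity-linked genes and the EBF motif in 0 of 13 odor transduction genes. The shares cover all list members with a window, also those that did not differ between the fractions. A match describes these letters and does not show that a factor was bound.

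The arrays carried log2 signals for 19505 named genes. Their median over genes was 6.95 to 7.09 in the arrays titled GFP+ and 6.62 to 6.69 in those titled GFP-. The median of the negative control features, which serves here as the background of an array, was 5.05 to 5.59 and 5.43 to 5.56, and its difference between fractions ran from -0.38 to 0.03 over the pools. Correlation between arrays was 0.989 to 0.994 within a fraction and 0.937 to 0.968 between fractions. Pool 1 stood apart in its array titled GFP-, with a mean neutrophil signal of 6.30 against 5.40 to 5.73 in the other pools, and pool 2 in its array titled GFP+, at 11.88 against 12.60 to 12.91. Counts of at least 4 that moved by over 1.5 times without 1 of these pools are given with that value.

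At an adjusted p under 0.05 (limma with Benjamini-Hochberg adjustment over all genes), the arrays titled GFP+ had 2406 of 19505 genes higher (12.3% of genes) and 2658 lower (13.6%). Without pool 1 the lower calls fell to 1623. The shares of 12.3% and 13.6% are the reference for every list count below. The sides differed in size: outside the receptor families 1382 genes were higher by at least 2-fold and 82 lower, and 237 against 0 by at least 16-fold. Of the 22 genes lower by 16-fold or more, all were odorant receptors. The median difference of all genes was -0.14. It moved to -0.51 with arrays centred on their medians, to -1.06 with centring on housekeeping genes, to 0.11 with centring on transduction genes and to -0.02 with cyclic loess. The lower calls numbered 12539, 16863, 805 and 1411 under those scalings, and the higher calls 1818, 1187, 3555 and 2792. Small differences are therefore read relative to the median of all genes, and the plot of differences against signal level shows how the sides part.

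**Figure D1:**
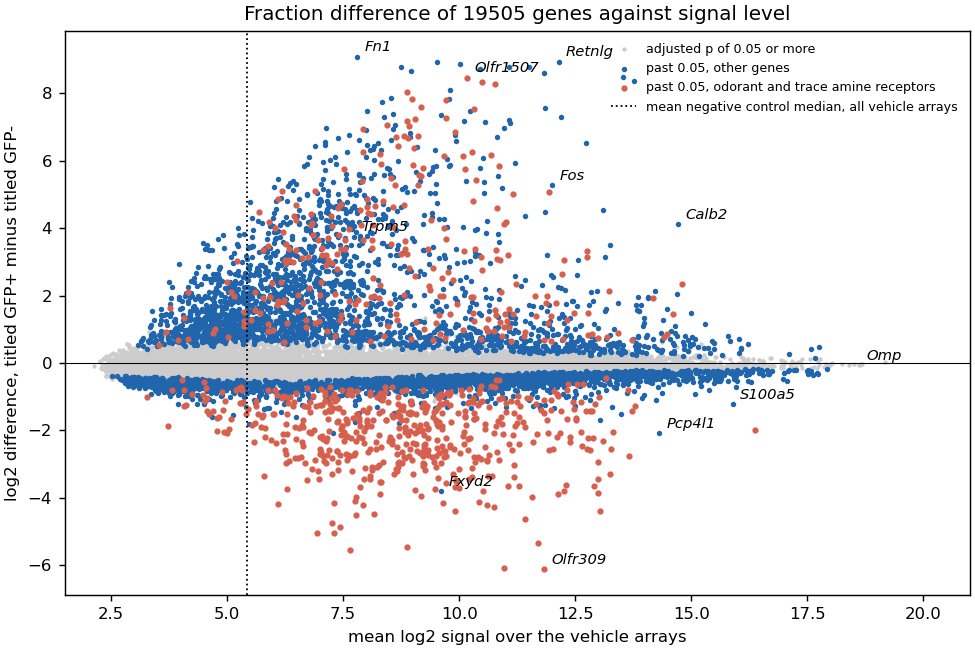
Log2 difference between the fractions of the vehicle pools (vertical axis, titled GFP+ minus titled GFP-) against the mean log2 signal of the 8 vehicle arrays (horizontal axis), 1 point per gene. The upper side reaches 9.08 for Fn1 and 8.46 for Olfr1507, and the lower side is led by odorant receptors down to -6.12 for Olfr309, with Fxyd2 at -3.81 as the lowest gene outside the receptors.

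S100a5 encodes a calcium-binding protein of sensory neurons. Its log2 signal was 15.15, 15.31, 15.64 and 15.01 in the arrays titled GFP+ of pools 1 to 4, and 16.59, 16.62, 16.60 and 16.23 in those titled GFP-. All 4 arrays titled GFP- lay above all 4 titled GFP+, and the signal in the latter remained far above background. The difference was -1.23 ± 0.09 (model SE, 4 vehicle pools, adjusted p = 4.78e-07), a 2.35-fold lower level. The standard error (SE) of this and every later difference comes from the model over all 16 arrays, with limma's variance moderated over genes. It is not computed from the 4 vehicle pools alone. Pcp4l1, which encodes a relative of a calmodulin-binding protein, measured 13.02, 13.57, 13.66 and 12.78 in the arrays titled GFP+ against 15.06, 15.42, 15.98 and 14.95 in those titled GFP-. The groups did not overlap, and the difference was -2.10 ± 0.10 (adjusted p = 3.69e-09). Omp, the marker protein of mature sensory neurons, measured 18.48, 18.55, 18.63 and 18.71 against 18.61, 18.67, 18.69 and 18.67. These ranges overlapped, and the difference of -0.06 ± 0.05 did not pass the threshold (adjusted p = 0.390). With the arrays centred on their medians or on housekeeping genes the Omp difference became -0.43 or -0.98 and passed, and with centring on transduction genes it became 0.19 and passed in the other direction.

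Retnlg, a resistin-like gene of neutrophils, measured 16.92, 16.30, 16.57 and 16.65 in the arrays titled GFP+ and 8.72, 7.32, 7.10 and 7.55 in those titled GFP-. The gap between the groups was far wider than their spread, and the difference was 8.94 ± 0.16 (adjusted p = 3.06e-12). Trpm5, the cation channel of microvillar cells, measured 10.35, 9.74, 9.67 and 8.65 against 6.15, 5.70, 5.90 and 5.67. Its groups did not overlap either, with the array titled GFP+ of pool 4 the lowest of its group, and the difference was 3.75 ± 0.30 (adjusted p = 7.33e-07). The fractions are bulk samples, in which fewer cells of a type and less RNA per cell cannot be told apart. Omp was near the top of the scale in both fractions, while Retnlg and Trpm5 were above the background median in every array titled GFP- as well.

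**Figure D2:**
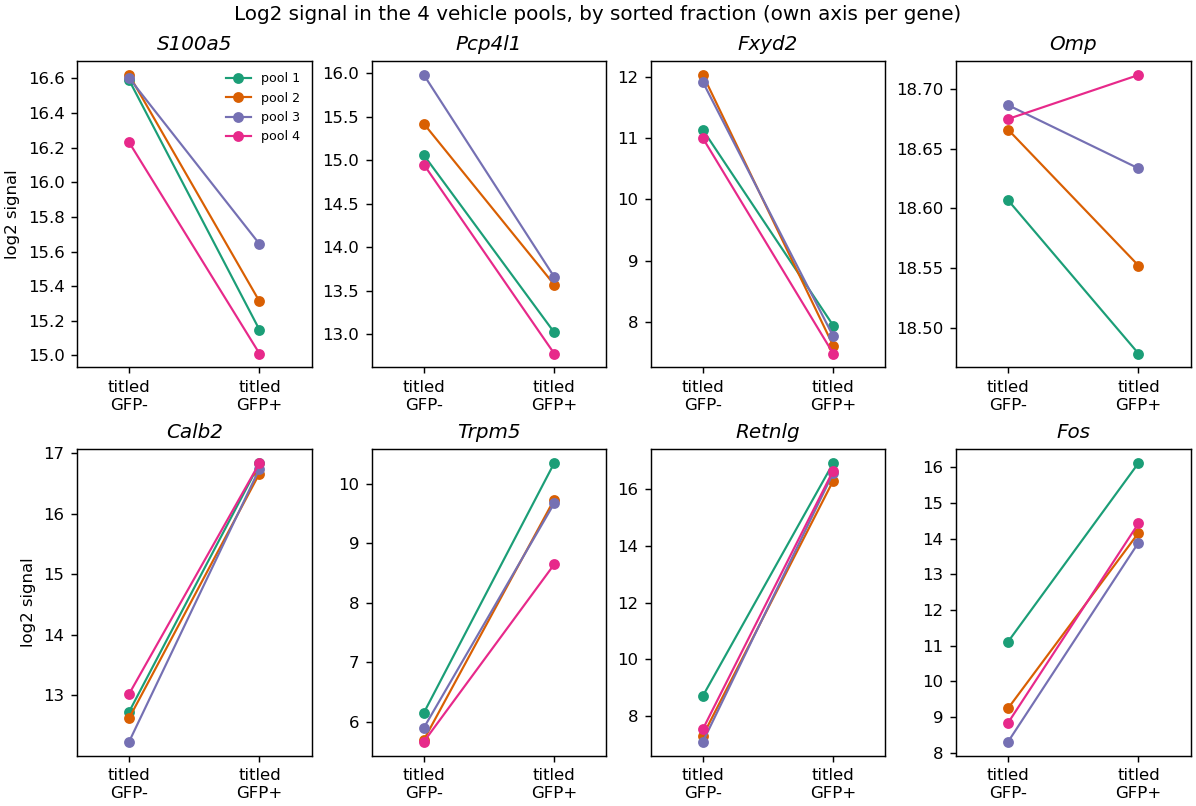
Log2 signal (vertical axes, one per gene) of 8 genes in the arrays titled GFP- (left in each panel) and titled GFP+ (right) of the 4 vehicle pools, with the arrays of a pool joined by a line. S100a5, Pcp4l1 and Fxyd2 were lower in the array titled GFP+ of all 4 pools, Calb2, Trpm5, Retnlg and Fos were higher in all 4, and Omp had ranges that overlapped.

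The genes linked to neuronal activity moved with S100a5. Of 13 measured, 10 were lower in the arrays titled GFP+, 1 was higher and 2 did not pass, with a median of -1.04 against -0.14 for all genes. Besides S100a5 and Pcp4l1, the largest differences were those of Lrrc3b, a leucine-rich repeat membrane protein (-1.69 ± 0.11, adjusted p = 7.22e-08), and Cidea, a lipid droplet protein (-1.29 ± 0.14, adjusted p = 1.07e-05). Lrrc3b ranged from 11.74 to 12.78 in the arrays titled GFP+ and from 13.58 to 14.26 in those titled GFP-, and Cidea from 10.80 to 11.14 and from 12.08 to 12.59. Neither gene's ranges met. The count of lower members was 10 to 13 under every scaling tried and 10 without any 1 pool. S100a5 and Pcp4l1 are members of the list as well as the markers described above.

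Among genes that are no receptors, Fxyd2, a regulatory subunit of the sodium-potassium pump, had the largest fall. It measured 7.95, 7.62, 7.77 and 7.49 in the arrays titled GFP+ and 11.13, 12.02, 11.91 and 10.99 in those titled GFP-. Every array titled GFP- exceeded every array titled GFP+, and the level was 14.0-fold lower (-3.81 ± 0.21, adjusted p = 2.00e-08). Avp, the vasopressin precursor, measured 6.37, 6.15, 6.40 and 6.08 against 7.90, 8.12, 8.56 and 8.68. The groups did not overlap, and it was 4.20-fold lower (-2.07 ± 0.25, adjusted p = 3.32e-05). Ptprn, a dense core vesicle protein, was 3.47-fold lower, and Cyp26b1, which degrades retinoic acid, was 3.38-fold lower. Kcnmb3, a subunit of calcium-activated potassium channels, was 2.88-fold lower at high signals, 12.27 to 13.05 against 13.92 to 14.57. Ppp1r3c, a glycogen-targeting phosphatase subunit, and Caly, a vesicle trafficking protein, were both 2.79-fold lower, although the Caly ranges came close, 7.16 to 8.81 against 8.99 to 10.11. Of the 15 largest falls, others were near background. Galnt15, a glycosyltransferase, was 3.07-fold lower, with 1 array titled GFP+ at or below background. Cemip (2.74-fold lower) and Spon2 (2.60-fold lower) were there in 2 and 3 of the 4 arrays titled GFP+. Cntnap5b, Akap3 and Gm5901 were there in all 4, which makes them at least 2.08-fold, 1.11-fold and 1.48-fold lower. In the arrays titled GFP-, Akap3 was at or below background in 2 of 4 and Gm5901 in 1 of 4.

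Of 16 measured members of the odor transduction cascade, 9 were lower (56.2%, against 13.6% of all genes) and 1 was higher. Their median was -0.34, or 0.19 below that of all genes. The phosphodiesterases Pde1c and Pde4a, which break down cyclic AMP, fell by 0.81 and 0.53 on the log2 scale (adjusted p = 2.39e-05 and 0.000402). Pde1c measured 14.78 to 15.19 against 15.73 to 15.95, without overlap. The higher member, with the widest difference of the list, was the receptor kinase gene Grk3 (1.31 ± 0.20, adjusted p = 0.000323). It was at or below background in all 4 arrays titled GFP- and thus at least 1.63-fold higher, with means of 6.21 and 4.90, and did not pass with housekeeping centring (0.40). With centring on these same genes 3 were lower and 3 higher. Of 18 further markers of mature neurons, 8 were lower and 1 was higher, with a median of -0.17, close to that of all genes. The lower count was 5 without pool 1, and centring on transduction genes gave 4 higher and 0 lower. The 1 higher member was Sox11, a transcription factor better known from developing neurons, at 9.22 to 10.53 against 7.57 to 8.07 (2.12 ± 0.33, adjusted p = 0.000338).

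Vesicle release genes and cadherins were more often lower than higher, against 13.6% lower and 12.3% higher among all genes. Of 22 vesicle release genes, 13 (59.1%) were lower and 9 did not pass, with a median of -0.37 against -0.14 for all genes. Syt4, a synaptotagmin of dense core vesicles, led them (-1.24 ± 0.13, adjusted p = 7.13e-06). Of 53 cadherins and protocadherins, which mediate contact between cells, 24 (45.3%) were lower and 2 (3.77%) higher, with a median of -0.41. Pcdh7 was 2.54-fold lower and Cdh18 was 2.35-fold lower, whereas the epithelial cadherin Cdh1 was 19.4-fold higher (4.28 ± 0.23, adjusted p = 1.99e-08). Cdh1 measured 12.63, 10.94, 11.94 and 11.29 against 8.50, 7.46, 7.03 and 6.68, a separation in all pools. The cadherin count of 24 was 15 without pool 1, 13 without pool 4 and 15 without the block for pool, and with cyclic loess it was 15 and the vesicle count 7. Centring on transduction genes left 9 and 3 lower.

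Among 21 calcium-binding and calcium-dependent signaling genes listed apart from the S100 family, 4 were higher, 3 were lower and 14 did not pass. The higher count was 2 without pool 1. Their median was -0.14, as for all genes, so the list as a whole did not shift. Calb2 and Necab1 had its largest difference in each direction. Calb2, the calcium buffer calretinin, measured 16.83, 16.66, 16.74 and 16.83 in the arrays titled GFP+ and 12.73, 12.63, 12.24 and 13.03 in those titled GFP-. Its arrays titled GFP+ agreed to within 0.17 log2 units and stood clear of the others, and the gene was 17.3-fold higher (4.11 ± 0.13, adjusted p = 1.57e-10). Necab1, a neuronal calcium-binding protein, was 2.06-fold lower. In the S100 family, to which the reporter gene belongs, 6 of 16 measured genes were higher (37.5%) and 5 lower (31.2%). Among all genes these shares were 12.3% and 13.6%. The lower count was 3 without pool 1. At or below background in all 8 arrays were 4 of the 16, some of the lower ones among them. The higher ones were S100a8 and S100a9 (444-fold and 440-fold), the alarmins of neutrophils, with S100a11 (126-fold), S100a10, S100a6 and S100a4 (4.39-fold). S100a10 was at or below background in all 4 arrays titled GFP-, so it was at least 3.34-fold higher, with means of 7.25 and 4.51. The reporter gene had the largest fall of the family.

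The arrays titled GFP+ had higher signals for most cell cycle genes. Of 30 cell cycle and replication genes, 28 were higher, with a median of 2.24 against -0.14 for all genes. Mki67, the proliferation antigen, measured 11.21, 9.10, 11.14 and 11.14 in the arrays titled GFP+ and 5.26, 4.69, 5.53 and 4.66 in those titled GFP-. The array of pool 2 was the low one of its group, and all arrays titled GFP- were at or below background, which makes Mki67 at least 35.2-fold higher, with means of 10.65 and 5.03. Ube2c, a ubiquitin-conjugating enzyme of mitosis, was at least 18.0-fold higher, with means of 9.68 and 3.77, and the mitotic cyclin Ccnb2 was 14.3-fold higher. These genes are those of any dividing cell, also of leukocyte and red cell precursors. Of 11 measured genes of globose basal cells and early neurogenesis 6 were higher and 5 did not pass. At or below background in all 8 arrays were 2 of the 11. The higher ones included Kit, a receptor kinase (at least 11.5-fold, with means of 9.03 and 4.65), and the stem cell factor Sox2 (3.15-fold). Which cells gave these signals was not tested. After centring on housekeeping genes 2 of the 11 were higher and 3 lower.

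Immature neuron genes were divided: of 19, 8 were higher, 2 lower and 9 did not pass, with a median of 0.12. Gng8, a G protein subunit, measured 10.62, 10.20, 10.17 and 10.55 against 6.36, 6.26, 5.54 and 6.27. The groups were far apart, and the level was 19.3-fold higher (4.27 ± 0.16, adjusted p = 6.21e-10). Nhlh1, a transcription factor of newly born neurons, was at or below background in all 4 arrays titled GFP- and at least 9.61-fold higher, with means of 8.78 and 4.80. Dpysl3, a cytoskeletal protein of growing axons, was 7.96-fold higher, and Cxcr4, a chemokine receptor also known from leukocytes, was 44.7-fold higher. The lower members, named after their values were seen, were Trib3, a pseudokinase, at -0.80 ± 0.16 (adjusted p = 0.00230), and the adhesion molecule Ncam1 at -0.29 ± 0.10 (adjusted p = 0.0457). The Ncam1 call was lost without any 1 pool and without the block. The microtubule genes Dcx and Tubb3, widely used as markers of young neurons and also named after their values were seen, differed by -0.29 and -0.14 and did not pass. Gap43, of the same list and likewise named after its values were seen, was higher (2.00 ± 0.17, adjusted p = 1.69e-06, means 9.84 and 7.84). Centring on medians gave 8 higher and 8 lower. Lbr, the lamin B receptor of the nuclear envelope, which mature sensory neurons downregulate, was 3.69-fold higher (1.89 ± 0.24, adjusted p = 4.68e-05).

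Neutrophil genes had the widest gap of the cell type lists. All 23 measured members were higher in the arrays titled GFP+, none of their ranges overlapped, and their median was 6.96, against -0.14 for all genes, of which 11.2% were higher without overlap. Mmp8, a neutrophil collagenase, measured 14.49, 13.31, 14.16 and 14.00 against 5.65, 4.86, 4.89 and 4.85, a 487-fold difference with 3 of the 4 arrays titled GFP- at or below background. S100a8 measured 16.51, 15.42, 15.71 and 15.96 against 8.92, 6.49, 6.68 and 6.35, with the array titled GFP- of pool 1 far above the other pools. Both genes hold the PU.1 motif shown above. The granule and secreted proteins Lcn2, Ngp and Ltf were 360-fold, 330-fold and 273-fold higher, with 3 of the 4 Ltf arrays titled GFP- at or below background. Rac2, a GTPase of leukocytes, was at or below background in all 4 arrays titled GFP- and at least 124-fold higher, with means of 12.46 and 4.59, and Anxa1, an annexin abundant in neutrophils, was 230-fold higher. The neutrophil count was 23 without any 1 pool and 22 to 23 under the scalings.

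All 23 monocyte and macrophage genes were higher too, with a median of 3.61 and 21 to 23 higher without any 1 pool. Fn1, the fibronectin gene, measured 12.79, 11.48, 12.79 and 12.30 in the arrays titled GFP+ and was at or below background in all those titled GFP-, at 3.38, 2.86, 3.40 and 3.37. It was therefore at least 114-fold higher, while Ly6c2, a surface antigen of monocytes, was 422-fold and Chil3, a chitinase-like protein of macrophages, 388-fold higher. Of 9 class II antigen presentation genes 6 were higher, with H2-Aa at 41.8-fold and H2-Ab1 at 32.8-fold. B2m, the light chain of class I molecules, was 23.3-fold higher, although it is often used as a constant reference. Lymphocyte lists were smaller and dimmer. Of 14 B lineage genes 6 were higher, with Jchain, the joining chain of antibodies, at a mean of 10.37 against 4.76, with 3 of the 4 arrays titled GFP- at or below background, and the B cell receptor subunit Cd79a at least 6.95-fold (means 8.31 and 4.97). Of 13 genes of T and natural killer cells 6 were higher, with Nkg7, a granule protein, at least 2.99-fold higher (means 7.09 and 5.05), and 11 of the 13 were at or below background in every array titled GFP-.

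Mast cell and basophil genes were higher for 4 of 8 members, including the histamine-forming enzyme Hdc (45.6-fold) and the mast cell protease Cpa3 (13.4-fold, with 2 of 4 arrays titled GFP- at or below background). The other 4, all mast cell proteases, did not pass. Of the 8 members, 5 were at or below background in all 8 arrays. Of 10 measured erythroid genes, 7 were higher, with a median of 1.97. Car1, a carbonic anhydrase of red cell precursors, was at least 18.0-fold higher (means 9.68 and 4.38), and Rhag, an ammonium channel of the red cell membrane, at least 7.69-fold (means 8.45 and 4.27). Slc4a1, the anion exchanger of red cells, measured 11.70, 10.22, 11.93 and 11.82 against 8.52 to 9.05, with the array of pool 2 again low in its group. In the arrays titled GFP+, pool 2 had the lowest mean of the neutrophil, monocyte, erythroid and cell cycle lists. The part of blood-derived cells in the other differences between the fractions was not tested. Vessel and connective tissue genes did not follow: of 11 endothelial and 11 fibroblast genes, 10 and 10 did not pass, and 7 and 6 were at or below background in all 8 arrays. Of 8 smooth muscle and pericyte genes 2 were higher (25.0%), 1 lower (12.5%) and 5 did not pass, with a median of -0.15. Rgs5, a regulator of G protein signaling known from pericytes, was 20.4-fold higher at 12.32 to 14.67 against 8.51 to 10.00, and Acta2, the smooth muscle actin, was at least 1.13-fold higher (means 5.69 and 4.27). Des, the intermediate filament desmin, differed by -0.59 at levels below background in all arrays. Of 9 genes of ensheathing and Schwann cells 2 were higher (22.2%, against 12.3% of all genes) and 7 did not pass. Their median was -0.03. The higher ones were Sox10, a factor of glia and of gland cells, at least 1.30-fold higher (means 5.89 and 4.33), and the myelin gene Pmp22 (0.91 ± 0.25, adjusted p = 0.0157), whose call was lost without pool 1, 2 or 3.

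**Figure D3:**
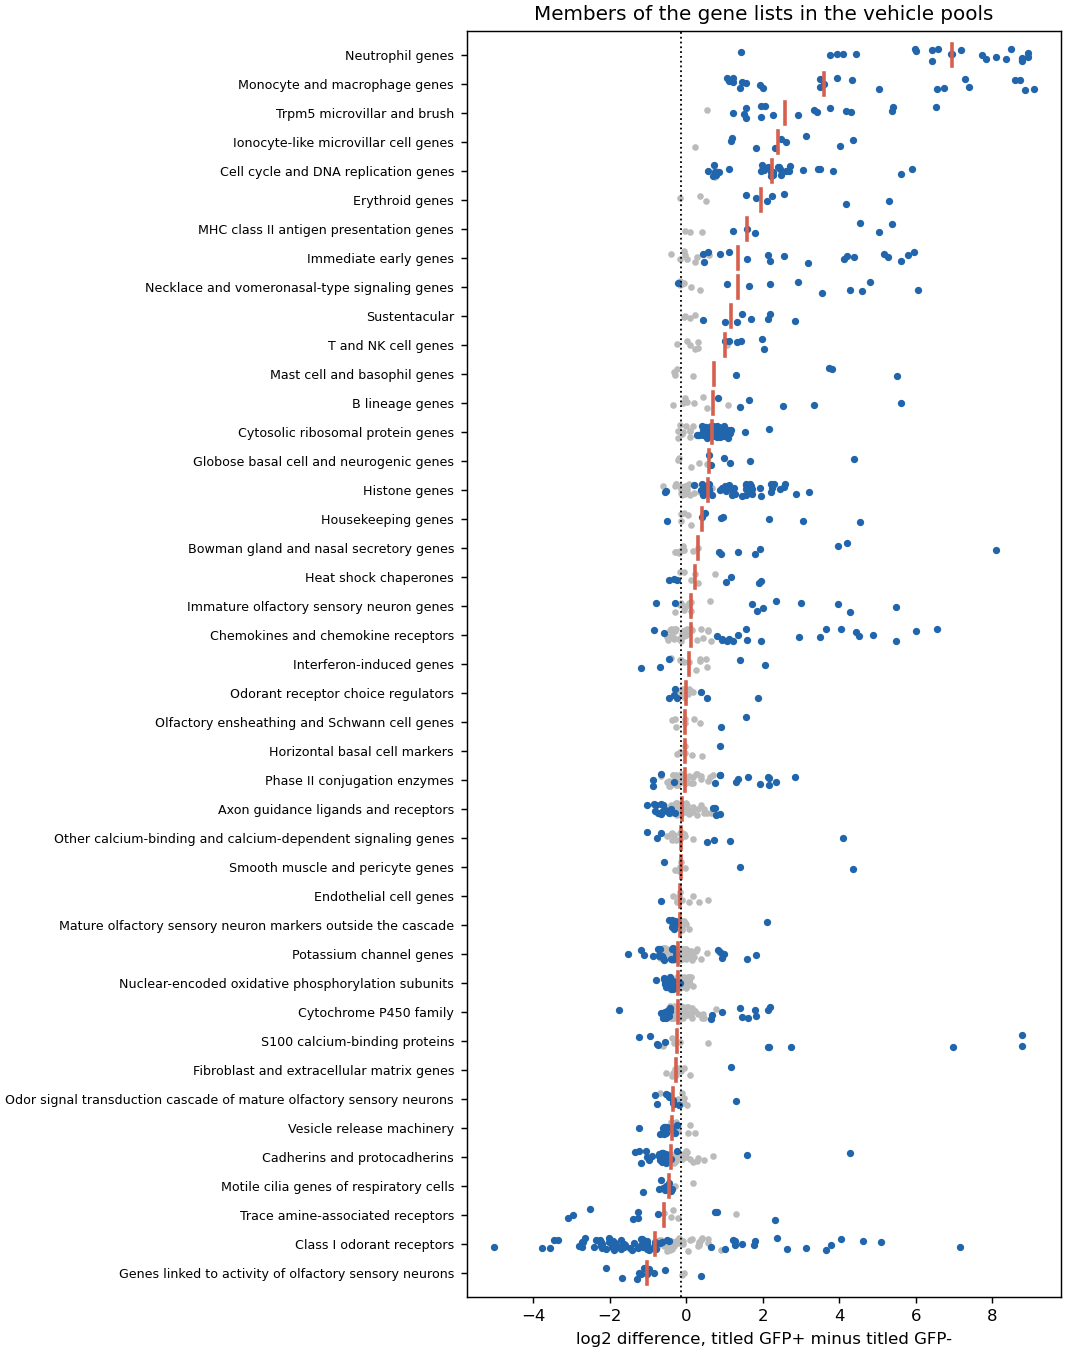
Log2 difference between the fractions of the vehicle pools (horizontal axis, titled GFP+ minus titled GFP-) for every measured member of the gene lists, 1 row per list ordered by its median. Blue points passed an adjusted p of 0.05, grey points did not, red bars are list medians and the dotted line is the median of all genes (-0.14); the neutrophil median lies at 6.96 and the median of the activity-linked genes at -1.04.

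Genes of microvillar, ionocyte-like and sustentacular cells were mostly higher in the arrays titled GFP+, whereas those of ciliated and horizontal basal cells were not. Of 18 measured genes of Trpm5 microvillar and brush cells, 17 were higher, with a median of 2.59. Sh2d7, an adaptor protein of brush cells, was at or below background in all 4 arrays titled GFP- and at least 6.24-fold higher (means 8.15 and 3.84). Other leading members are shared with leukocytes, namely Cd24a, a surface protein (means 11.52 and 4.99, with 3 of 4 arrays titled GFP- at or below background), and Alox5 (at least 12.2-fold, means 9.12 and 3.71) and Alox5ap (41.9-fold), which form leukotrienes. Of 10 ionocyte-like genes, 9 were higher, with a median of 2.41. Foxi1, the transcription factor of ionocytes, measured 11.96, 10.18, 10.27 and 9.54 against 7.79, 5.72, 6.10 and 6.25. The chloride channel Cftr was 8.81-fold higher, Coch, a secreted matrix protein, 6.08-fold, and Stap1, an adaptor also known from lymphocytes, 20.7-fold. For Foxi1, Trpm5, Cftr and Coch alike, pool 1 gave the highest and pool 4 the lowest array titled GFP+.

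Of 12 sustentacular genes, 8 were higher and 4 did not pass, with a median of 1.18. Cyp2a5, a cytochrome P450 of the mucosa, measured 16.04, 14.80, 15.43 and 14.90 in the arrays titled GFP+ and 14.12, 12.88, 12.97 and 12.61 in those titled GFP-. Both fractions thus held high signals, and pool 1 was highest in each. Cyp1a2, another P450, was 4.53-fold higher and the sulfotransferase Sult1c1 7.21-fold higher. Of 17 gland and secretory genes, 8 were higher. They included Sox9, a transcription factor of gland and duct cells (18.5-fold), and Scgb1c1, a secretoglobin of the nasal mucosa (15.6-fold), but also Ltf, a neutrophil granule protein. Centring on housekeeping genes gave 5 higher and 5 lower sustentacular genes, and 5 higher and 9 lower gland genes. Motile cilia genes of respiratory cells went the other way. Of 13 measured, 9 were lower, with Ccdc113, a cilia protein, at 2.17-fold lower and Tekt1, a filament protein of the axoneme, at 1.65-fold lower. That count was 4 without pool 1, 5 with cyclic loess and 2 with centring on transduction genes. Of 7 horizontal basal cell markers, 6 did not pass and 6 were at or below background in all 8 arrays. The 1 higher was the integrin gene Itga6 (0.88 ± 0.25, adjusted p = 0.0186), which did not pass without pool 1 or pool 4.

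Signal proteins of the necklace and vomeronasal type gave 9 higher members of 16 (56.2%, against 12.3% of all genes). Gnai2, an inhibitory G protein subunit that leukocytes also express, led them (67.3-fold, 12.79 to 13.86 against 7.02 to 7.94). The vomeronasal and formyl peptide receptors were near background, with 298 of 324 at or below it in all 8 arrays. Of them 32 were lower (9.88%, against 13.6% of all genes) and 0 higher. The lower count was 13 without pool 3, 20 without pool 4, 11 with cyclic loess and 4 with the dimmest genes left out.

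Immediate early genes, which cells induce within minutes of a stimulus, were mostly higher in the arrays titled GFP+, whereas most activity-linked genes were lower. Of 26 measured, 18 were higher (69.2%, against 12.3% of all genes) and 8 did not pass, with a median of 1.35. At or below background in all 8 arrays were 3 of the 26. The list is not specific to neurons, and which cells gave the higher signals was not tested. Fos, a subunit of the AP-1 factor, measured 16.11, 14.16, 13.88 and 14.42 against 11.11, 9.25, 8.31 and 8.84. Both fractions of pool 1 were the highest of their groups, and the difference within pools was close to constant (5.27 ± 0.14, adjusted p = 5.37e-11). Egr2, a zinc finger factor, measured 14.49, 11.59, 11.43 and 11.88 against 8.12, 5.63, 6.27 and 6.14, again with pool 1 above the others in both fractions. The related Egr1 was 61.5-fold higher, and Zfp36, which destabilises messenger RNA, 49.1-fold higher. Mean signals of the list were 10.76 in pool 1 and 9.07 to 9.82 in pools 2 to 4 of the arrays titled GFP+, and 8.14 against 7.26 to 7.49 in those titled GFP-. Centring on housekeeping genes gave 13 higher and 10 lower. Of 13 heat shock chaperones 4 were higher (30.8%) and 3 lower (23.1%), against 12.3% and 13.6% of all genes. The lower count was 1 without pool 1 or pool 2. The near-identical genes Hspa1a and Hspa1b, whose probes may share signal, were 3.76-fold and 3.84-fold higher.

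**Figure D4:**
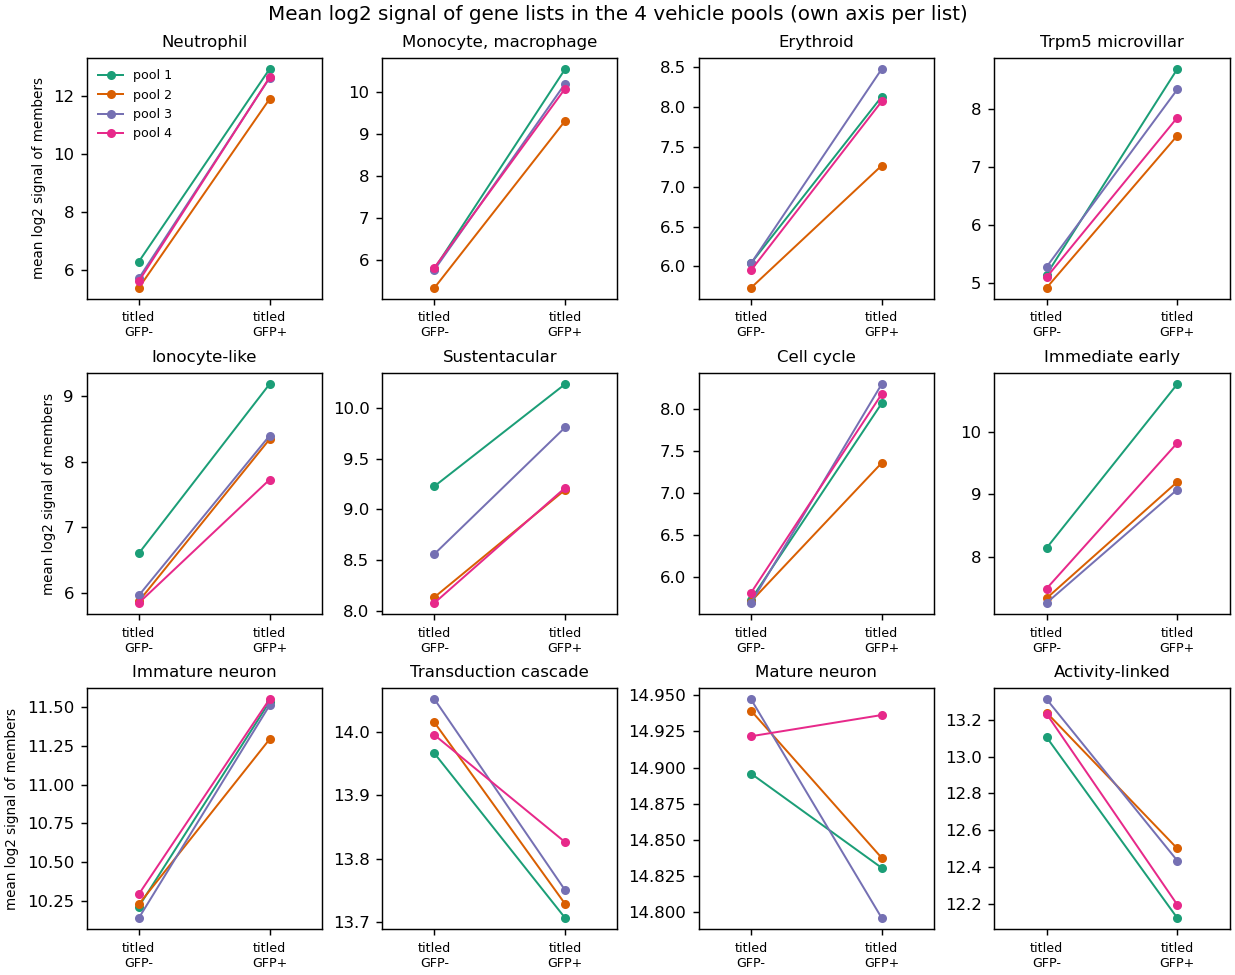
Mean log2 signal of the members of 12 gene lists (vertical axes, one per list) in the arrays titled GFP- (left) and titled GFP+ (right) of the 4 vehicle pools, with the arrays of a pool joined by a line. Pool 1 had the highest immediate early and sustentacular means in both fractions (10.76 and 8.14, 10.24 and 9.23), and pool 2 had the lowest neutrophil and cell cycle means in the arrays titled GFP+ (11.88 and 7.36).

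Cytosolic ribosomal protein genes were higher for 52 of 63 members, with a median 0.82 above that of all genes. Rplp0, a stalk protein, was 4.47-fold higher and Rps16, of the small subunit, 2.91-fold higher. Centring moves all genes of an array by the same amount, and the counts moved with it: 30 were higher and 7 lower with median centring, and 2 higher and 29 lower with housekeeping centring, which uses Rplp0 and B2m among its references. Of 74 histone genes, 46 were higher and 2 lower, but 32 and 17 with median centring and 23 and 36 with housekeeping centring. H2ac15, a core histone, was 9.22-fold higher and H1f1, a linker histone, 7.25-fold higher with 2 of 4 arrays titled GFP- at or below background. Histone genes of 1 cluster have near-identical coding sequences, so their probes may share signal.

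Odorant receptors were parted in both directions. Of 1106 receptors, 1091 of them Olfr and 15 trace amine-associated genes, the arrays titled GFP+ had 263 higher (23.8%) and 526 lower (47.6%), against 12.3% and 13.6% of all genes. By at least 16-fold, 75 were higher and 22 lower, while from 2-fold to 16-fold 151 were higher and 437 lower. Both sizes of shift thus occurred in both directions. The far-shifted receptors were more often higher in the arrays titled GFP+, and the moderately shifted ones more often lower. Leaving out any 1 pool gave 242 to 252 receptors higher and 476 to 516 lower. The counts moved further with scaling. Median centring gave 236 higher and 661 lower, and housekeeping centring 184 and 773. Centring on transduction genes gave 295 and 462, and cyclic loess 282 and 501.

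Olfr1507 measured 14.67, 13.95, 14.61 and 14.36 in the arrays titled GFP+ and 6.63, 5.48, 6.09 and 5.54 in those titled GFP-. The latter were at or near background, and the difference was 8.46 ± 0.29 (adjusted p = 2.13e-10). Olfr99 measured 14.83, 15.07, 14.45 and 14.27 against 7.32, 5.39, 7.38 and 5.21, with pools 2 and 4 at background on the side titled GFP-. Olfr1297 measured 15.10, 14.39, 15.20 and 14.91 against 7.76, 6.08, 6.37 and 6.34. In all 3 receptors each array titled GFP+ was more than 6 log2 units above each array titled GFP-.

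On the other side, Olfr309 measured 7.93, 10.02, 8.66 and 8.50 in the arrays titled GFP+ and 14.90, 15.19, 14.65 and 14.86 in those titled GFP- (-6.12 ± 0.23, adjusted p = 5.58e-10). Olfr536 measured 7.62 to 8.42 against 13.39 to 14.68 (-6.08 ± 0.21, adjusted p = 2.68e-10). Pool 2 gave the highest array of both receptors in both fractions. Olfr372 measured 4.84, 4.71, 5.35 and 4.63 against 10.46, 11.21, 9.79 and 10.23, with 3 of the 4 arrays titled GFP+ at or below background. Olfr110 was 44.6-fold lower, and Olfr1093, at or below background in all 4 arrays titled GFP+, was at least 22.6-fold lower with means of 4.78 and 9.83. High signals in 1 fraction and signals near background in the other were thus found on both sides of the sort.

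The receptors divide into class I, the older group, and class II. Of 112 class I receptors, 17 were higher and 61 lower, with a median of -0.81, and of 979 class II receptors 243 were higher and 458 lower, with a median of -0.57. The difference between the classes was not tested. Class I held members on both sides: Olfr677 measured 12.45 ± 0.59 against 5.29 ± 0.61 (SD, n = 4), and Olfr613 measured 4.58, 4.37, 4.19 and 4.50 against 9.51, 9.01, 9.75 and 9.52. Neither gene's groups overlapped. For Olfr677, 3 of the 4 arrays titled GFP- were at or below background. Olfr613 was at or below it in all 4 arrays titled GFP+ and thus at least 17.3-fold lower. The 15 trace amine-associated receptors gave 3 higher and 7 lower, or 1 and 5 without pool 1 and 1 and 7 without pool 2. Taar2 was 4.99-fold higher, and Taar4 and Taar9 were 8.50-fold and 7.79-fold lower.

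Receptor genes lie in clusters, and the balance varied among chromosomes. On chromosome 10, 25 of 65 receptors were higher and 17 lower, with a median of 0.17, and on chromosome 6 the numbers were 9 and 6 of 27. On chromosome 14, 7 of 39 were higher and 25 lower (median -1.60), and on chromosome 16, 5 of 36 were higher and 23 lower (median -1.58). The chromosomes with the most receptors, 2 and 7, had 68 and 37 higher and 133 and 131 lower. The highest Olfr difference of all, that of Olfr1507, came from chromosome 14 with its low median. Of 554 pairs of neighbouring receptor genes in which both passed, 373 (67.3%) had the same direction, and over all 1074 neighbouring pairs the differences correlated at 0.174. Neighbouring receptors are often near copies whose probes may share signal, and pairs within a cluster share genes, so these numbers are a description only.

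**Figure D5:**
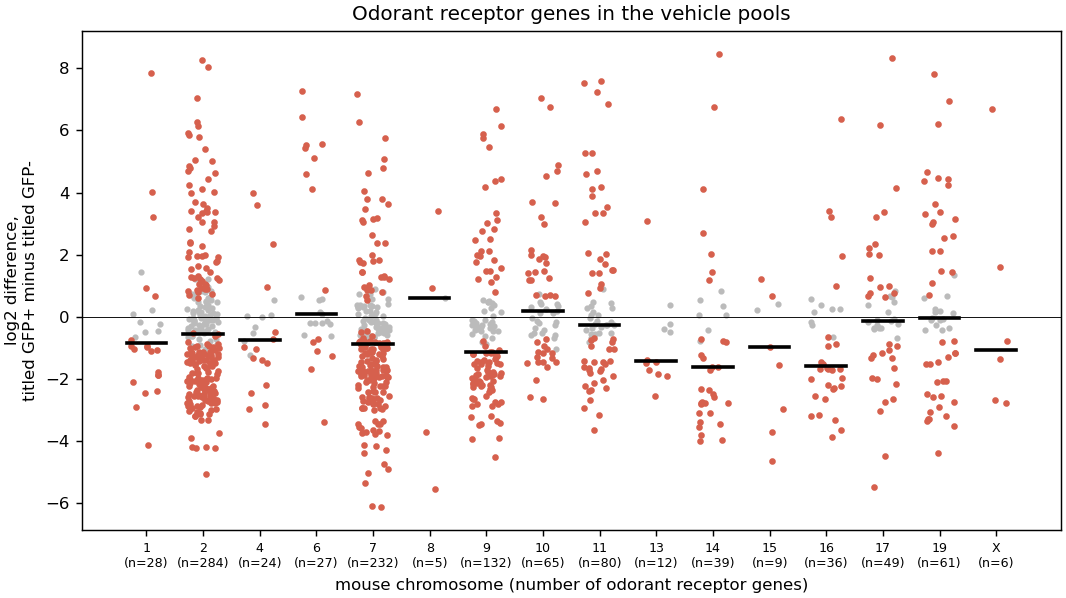
Log2 difference between the fractions of the vehicle pools (vertical axis, titled GFP+ minus titled GFP-) of 1089 Olfr genes on chromosomes with at least 5 of them, by chromosome (horizontal axis, with the number of genes). Red points passed an adjusted p of 0.05, grey points did not, and black bars are medians, from -1.60 on chromosome 14 to 0.60 on chromosome 8, which has 5 receptors.

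The fraction differences of the vehicle pools were set against those of the whiskey lactone pools by the interaction term of the same model. Of 19505 genes, 1 differed (0.00513%), Olfr221, while 638 had an unadjusted p under 0.05. In the vehicle pools Olfr221 measured 10.41, 10.54, 10.07 and 10.13 in the arrays titled GFP+ and 8.96, 8.26, 8.49 and 9.72 in those titled GFP-. The vehicle groups did not overlap, yet the difference of 1.43 ± 0.40 (adjusted p = 0.0180) no longer passed without pool 1 (1.42), pool 2 (1.15) or pool 3 (1.38), or with housekeeping centring (0.52). The fraction difference was 5.81 ± 0.56 log2 units larger in the vehicle than in the odor pools (adjusted p = 0.00306), where it was -4.38. Without a variance trend limma called 0 genes (smallest adjusted p = 0.0572), with 740 at an unadjusted p under 0.05. For all other genes named here the interaction did not pass, which does not show that the fractions were parted alike in both treatments.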

How the data were processed

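The deposited values were log2 signals in 1 table for 16 arrays, which the authors produced in Affymetrix Expression Console according to the submitters' processing notes. Version and normalization are not given in the sources, and the log2 scale was read from the values. Of 28846 features, 19572 had 1 gene symbol and 0 several in the platform annotation, matched to RefSeq (GRCm38.p6), and 5222 were negative controls, whose median per array served as background. The brightest feature of a gene was kept, which gave 19505 genes.

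Groups and pool numbers came from the titles. limma 3.58.1 in R 4.3.3 (lmFit, eBayes with a variance trend, two-sided, Benjamini-Hochberg, threshold 0.05) was run over the 16 arrays together, blocked by pool, which left 6 residual degrees of freedom, and was tested on simulated data. The pairing rests on each pool having given both fractions; over all genes, deviations from group means correlated at 0.136 to 0.341 within a pool. Where 1 fraction lay at or below background in all arrays, "at least" gives a fold against that background. The smallest SD of log2 differences between arrays of a fraction was 0.389, so no arrays were duplicates. Their number limits the precision.

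The genes and lists were chosen with earlier results of these data known. Named were the markers, the largest differences in each direction outside and among receptors, and up to 4 leading members of each list described, from which genes with stable calls were preferred after the alternatives were seen; members of the motif search were named by motif. Alternatives were no block, a random block, vehicle arrays alone, 4 scalings, leaving out genes whose mean signal was under the 30th percentile, averaging the features of a gene, no variance trend, and leaving out each pool.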

Additional observations from a re-analysis of the deposited data

Results flagged for a closer look

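For the named genes, 228 groups of 4 arrays were screened for a single array far from the other 3, and 18 were found. Chance alone gives about 1 in 20 groups. Gap43, Spon2 and Cemip were not screened. In the arrays titled GFP- of pool 1, S100a8 (8.92), Mmp8 (5.65) and Ube2c (4.40) were the high ones, and Egr2 (14.49) was high in the array titled GFP+ of that pool. In pool 2, the arrays titled GFP+ were low for Mki67 (9.10), Slc4a1 (10.22), Ly6c2 (14.10) and Gnai2 (12.79), and the array titled GFP- was high for Olfr1093 (10.79), Cyp26b1 (9.44) and Pde1c (15.95) and low for Fn1 (2.86). In pool 3, the array titled GFP- was low for H2-Aa (5.99) and Gng8 (5.54) and high for Jchain (5.78) and Grk3 (5.31). In pool 4, the array titled GFP- was low for S100a5 (16.23) and high for Cidea (12.59). Of these, Mmp8 (pool 1), Ube2c, Fn1, Jchain and Grk3 lay near or below background in the arrays titled GFP-.

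The fraction difference of Olfr221 was 5.81 log2 units larger in the vehicle than in the odor pools, by the interaction term.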

How the results depend on the processing

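The rule for named genes gave 194 genes, of which 39 lost their call or reversed under at least 1 of 14 alternatives (106 lost and 6 reversed calls in 2706 comparisons). Genes with stable calls were preferred for the text after these values were seen, so the stability of the genes printed is partly a result of that choice. Of 1581 comparisons of 113 printed genes, without S100a5, Gap43, Spon2 and Cemip, 1540 kept direction and side of the threshold. The exceptions were in Omp, which passed with median centring (-0.43) and housekeeping centring (-0.98) and turned to 0.19 with transduction gene centring, in Olfr221 and Grk3 as given above, and in Ncam1, Dcx, Tubb3, Des, Pmp22 and Itga6. Tubb3 turned to 0.12 with transduction gene centring, and Pmp22 and Itga6 to -0.0069 and -0.032 with housekeeping centring. The S100a5 difference stayed past the threshold in all alternatives, at -1.32 to -1.16 without single pools. Genes higher numbered 1187 with housekeeping centring and 1929 to 2256 without single pools. Genes lower numbered 12539 with median centring, 1411 with cyclic loess, 16863 with housekeeping centring, 805 with transduction gene centring and 1623 to 1988 without single pools. Without the replicate block 2244 genes were higher and 2114 lower; of the printed list counts of at least 4, this moved the lower cadherins by over 1.5 times, from 24 to 15, and no other. Receptors higher numbered 242 to 252 and lower 476 to 516 without single pools, but 184 to 295 and 462 to 773 under the scalings. The interaction count was 0 without a variance trend. Relative to the median of all genes, 278 of 280 list medians moved by less than their spread over pools. Many of these could not move: centring shifts all genes alike. Changing the block, using vehicle arrays alone or dropping the variance trend leaves each difference as it is. Only cyclic loess, leaving out dim genes, averaging features and leaving out pools could move them. The mature neuron median became -0.08 without pool 3 and the cadherin median -0.42 without dim genes. Of the 4 arrays titled GFP-, 1 was at or below background for Anxa1, Stap1, Sox2, Cxcr4, Zfp36, S100a4, S100a6 and Itga6, and 2 for Pmp22. Signals near background limit what can be said of 6158 genes that were at or below it in all 8 arrays.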
